A study of Mus musculus with 16 samples.

Results

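The pericellular and basement membrane matrix rows were 6 rows of a gene-count table from mouse tibial cortical bone: 8030451A03Rik, Tnc, Gm26840, 2700060E02Rik, Gm20444 and Aspn. They were chosen by the matrix gene that a row names or lies opposite, and by a response to mechanical loading that differed between genotypes in these same libraries. There were 6 such rows among 47517, and all 6 passed a filter on low counts that 7192 rows passed. Tnc and Aspn carry the name of a matrix gene. The other 4 rows carry the name of a transcript on the strand opposite a matrix gene: Tnc for 8030451A03Rik, Vwa1 for Gm26840, Nid2 for 2700060E02Rik, and both C1qtnf5 and Mfrp for Gm20444.

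The 16 libraries came from both tibiae of 8 male mice aged 16 weeks, with 4 libraries in each of 4 groups: NT3 loaded, NT3 non-loaded, Ctrl loaded and Ctrl non-loaded. NT3 stands for the label NT3-Cre+, and the series title concerns conditional activation of NF-kB inducing kinase in cells of the osteolineage. The sources used here give neither the allele, nor the Cre driver, nor the genotype behind the label Ctrl. The right tibia was compressed along its axis in 1200 cycles a day on 9 days, with 10.0 N in NT3 and 8.7 N in Ctrl mice, forces set to reach -2000 microstrain in both. The left tibia of the same mouse was not loaded, and both were collected 4 hours after loading ended, cleaned of muscle and spun to remove marrow.

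The pericellular matrix is the thin coat around a cell, and a basement membrane is the sheet of laminin, type IV collagen, nidogen and perlecan that underlies endothelium and ensheathes muscle and nerve. Tenascin C, the product of Tnc, is a large matricellular glycoprotein that modulates cell adhesion and is made by periosteum, tendon and osteoblasts. Vwa1 encodes a von Willebrand factor A domain protein that binds perlecan in the pericellular matrix of cartilage, and Nid2 encodes nidogen-2, which links laminin to type IV collagen. C1qtnf5 encodes a secreted C1q/TNF-related protein and Mfrp a membrane frizzled-related protein, both known best from the retinal pigment epithelium. Aspn encodes asporin, a small leucine-rich proteoglycan family member that binds collagen and TGF-beta.

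The sources used here do not state the strand setting of the counting. Over bases shared by a row and the gene opposite it, the strand that a fragment came from is therefore not known here. On GRCm38 the row 8030451A03Rik is a non-coding transcript on the plus strand at chr4:63979854-64149924. Its exons overlap those of Tnc, on the minus strand at chr4:63959785-64047015, by 176 bases, which is 4.3% of the exon bases of the row. All 176 bases are coding sequence of Tnc. They form a pair of blocks inside 1 Tnc exon block, shown here because they are the bases that a fragment of either row could share; the letters are those of the plus strand, read from the GENCODE transcripts of the row, and their reverse complement was found in Tnc transcripts.
chr4:63982651-63982754: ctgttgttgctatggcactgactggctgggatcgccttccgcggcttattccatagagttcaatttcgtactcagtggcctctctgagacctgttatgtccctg
chr4:63982852-63982923: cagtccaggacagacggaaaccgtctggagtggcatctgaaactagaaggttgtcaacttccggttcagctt

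The other overlaps were longer relative to the row. Gm26840, a long intergenic non-coding transcript at chr4:155769969-155776161 on the plus strand, overlaps exons of Vwa1 (chr4:155768149-155774698, minus strand) by 760 bases, 25.5% of its exon bases, of which 202 are coding in Vwa1 and 558 are not. The row 2700060E02Rik is the gene now named Rtraf, which encodes a subunit of the tRNA-splicing ligase complex, at chr14:19811351-19823824 on the minus strand. Its last exon overlaps the last exon of Nid2 (chr14:19751265-19811787, plus strand) by 437 bases, none of them coding in Nid2. Gm20444, annotated as a sense intronic transcript, lies at chr9:44107301-44108879 on the minus strand, within introns of Rnf26 and Gm49380 on that strand. All 648 of its exon bases are opposite exons of both C1qtnf5 (chr9:44107245-44109187) and Mfrp (chr9:44101729-44109187) on the plus strand. Of those 648 bases, 509 are coding in C1qtnf5 and none in Mfrp. C1qtnf5 lies wholly within exons of Mfrp on the same strand, so fragments over C1qtnf5 exons could come from either gene. A library held 53 to 352 fragments of Gm20444 and 19 to 42 of C1qtnf5. Thus not every fragment counted for Gm20444 was also counted for C1qtnf5. Aspn, at chr13:49544443-49567565 on the plus strand, had no gene opposite by the minimum of 20 exon bases used here; it overlaps an exon of Cenpp by 7 bases. The exon lengths in the deposited table equal the GENCODE M21 lengths for 8030451A03Rik, Tnc and Gm26840. They differ for 2700060E02Rik (1510 against 1927 bases), Gm20444 (729 against 648) and Aspn (2346 against 2354), so the counted models of these 3 rows are not exactly the ones mapped here.

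**Figure D1:**
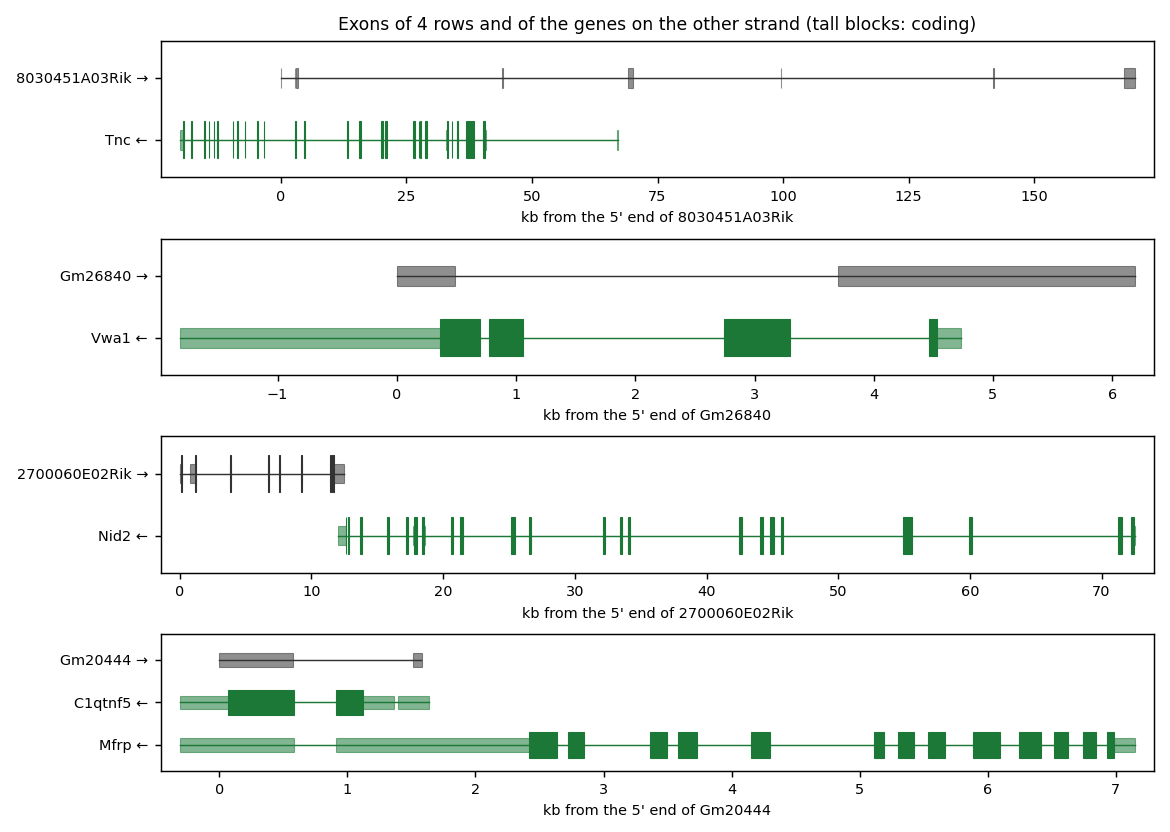
Exon maps of 8030451A03Rik, Gm26840, 2700060E02Rik and Gm20444 (grey) with the genes on the other strand (green), by distance in kb from the 5′ end of the row; arrows give the direction of transcription and tall blocks are coding. Gm20444 lies wholly over exons of C1qtnf5 and Mfrp, whereas 8030451A03Rik shares 176 bases with Tnc.

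Promoter windows of 250 bases before to 50 after the start (RefSeq, GRCm38.p6) were held for Tnc (2 starts), 8030451A03Rik, Aspn and Rtraf among the members, for C1qtnf5 and Mfrp, which share 1 window, and for Ogn, Omd and Ecm2, the neighbours of Aspn. Of these, a pair of windows for Tnc and 8030451A03Rik and a pair for Aspn and Ogn, the row most like Aspn across libraries, are printed 5′ to 3′ in the direction of each gene, with capitals for motif matches. The motifs in capitals, searched on both strands, were the AP-1 site (TGANTCA), the core of a promoter box that binds the TATA-binding protein (TATAAA) and the site of the TEAD factors (GGAATG), and matches may overlap. A further pattern, the frame of the serum response factor site (2 C, any 6 bases, 2 G), was found in 73.3% of all windows and is not in capitals.
Tnc, chr4:64046966-64047265, minus strand: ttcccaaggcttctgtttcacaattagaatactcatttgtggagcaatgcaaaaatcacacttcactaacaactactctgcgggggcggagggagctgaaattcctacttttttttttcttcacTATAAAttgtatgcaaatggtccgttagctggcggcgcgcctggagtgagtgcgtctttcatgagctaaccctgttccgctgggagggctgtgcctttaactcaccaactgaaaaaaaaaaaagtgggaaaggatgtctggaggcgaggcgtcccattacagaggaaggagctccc
8030451A03Rik, chr4:63984481-63984780, plus strand: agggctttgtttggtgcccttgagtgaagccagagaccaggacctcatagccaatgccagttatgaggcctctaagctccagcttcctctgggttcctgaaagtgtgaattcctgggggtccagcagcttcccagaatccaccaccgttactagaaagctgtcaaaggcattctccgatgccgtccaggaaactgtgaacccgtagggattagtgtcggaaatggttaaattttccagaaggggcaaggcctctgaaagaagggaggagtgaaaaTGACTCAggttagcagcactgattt
Aspn, chr13:49544193-49544492, plus strand: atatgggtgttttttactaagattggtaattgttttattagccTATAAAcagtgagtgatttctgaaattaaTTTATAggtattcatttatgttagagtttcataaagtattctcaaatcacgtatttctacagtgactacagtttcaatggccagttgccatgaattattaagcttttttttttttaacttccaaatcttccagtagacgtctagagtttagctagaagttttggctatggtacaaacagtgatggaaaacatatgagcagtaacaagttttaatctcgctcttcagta
Ogn, chr13:49607765-49608064, plus strand: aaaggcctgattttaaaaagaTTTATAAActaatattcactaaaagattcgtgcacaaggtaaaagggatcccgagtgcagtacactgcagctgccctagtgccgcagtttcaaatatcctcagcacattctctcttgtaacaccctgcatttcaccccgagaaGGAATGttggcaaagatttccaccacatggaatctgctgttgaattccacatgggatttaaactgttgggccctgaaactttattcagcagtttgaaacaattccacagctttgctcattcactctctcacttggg

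The 8030451A03Rik window is set on the RefSeq start, which lies 4877 bases downstream of the GENCODE start of the row and beyond both blocks printed above. That window lies inside the Tnc gene, with 252 of its 300 bases in Tnc coding exons. Its TGACTCA match runs from 25 to 31 bases after the RefSeq start. TGANTCA was found in 7.8% of the 32851 windows held. TATAAA was found in the windows of Tnc, Aspn and Ogn, and in 13.6% of all windows. In the windows printed, its matches begin at -126 for Tnc, -207 and -178 for Aspn, and -229 and -227 for Ogn. GGAATG was found in the Ogn window, in the window that C1qtnf5 and Mfrp share (-123 to -118) and in 14.7% of all windows. Among the windows printed, the serum response factor frame was found in those of 8030451A03Rik (-16 to -7) and Ogn (-94 to -85). The matches are letters in a window and not evidence of binding.

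By row name, the tissue carried bone markers at low depth. Total counts were 758394 to 1064391 fragments per library, and each library held 45 to 161 fragments of Dmp1, 34 to 127 of Mepe and 34 to 430 of Col1a1. The late osteoblast gene Bglap had 0 to 4 fragments and the periosteal gene Postn 0 to 8. Sums of 8 osteocyte marker rows were lower in the loaded limb of 2 of 8 mice, and the 12 osteoblast marker rows in 0 of 8, at 758 to 996 CPM in NT3 loaded, 523 to 688 in NT3 non-loaded, 773 to 1240 in Ctrl loaded and 301 to 586 in Ctrl non-loaded limbs. Sums of 8 periosteum and tendon marker rows, 2 of which passed the filter, were lower in the loaded limb of 1 of 8 mice, at 51.7 to 67.3 CPM in NT3 loaded, 24.5 to 54.2 in NT3 non-loaded, 56 to 78.1 in Ctrl loaded and 35.3 to 56.1 in Ctrl non-loaded limbs. Sums of 8 smooth muscle and pericyte rows were also lower in the loaded limb of 1 of 8, at 120 to 136 CPM in NT3 loaded, 106 to 121 in NT3 non-loaded, 98.8 to 158 in Ctrl loaded and 102 to 120 in Ctrl non-loaded limbs. These sums are of rows by name, and the 3 rows opposite an osteoblast marker gene summed to higher levels. They held 2170 to 4190 CPM in NT3 loaded and 916 to 1820 in NT3 non-loaded limbs. In Ctrl mice they held 3800 to 5790 CPM in loaded and 733 to 1340 in non-loaded limbs. The part of these cell types in the results on the 6 rows was not tested. CPM are counts per 1e+06 fragments, scaled by the trimmed mean of M values (TMM).

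Tnc was the scarcest of the 6 rows. Per kb of exon it averaged 2.42 ± 0.514 CPM in NT3 loaded and 4.4 ± 1.12 in NT3 non-loaded limbs, against 3.98 ± 1.62 in Ctrl loaded and 2.13 ± 1.03 in Ctrl non-loaded limbs (SD, n = 4 each), and a library held 10 to 42 of its fragments. The row opposite it, 8030451A03Rik, was the most abundant, at 401 ± 62.6 CPM per kb in NT3 loaded, 478 ± 92.6 in NT3 non-loaded, 506 ± 53.9 in Ctrl loaded and 379 ± 85.3 in Ctrl non-loaded limbs. Gm20444 came next, at group means from 119 to 450 CPM per kb. The rows 2700060E02Rik (24.4 to 61.5) and Aspn (39.7 to 46.5) had overlapping ranges of group means, and Gm26840 followed at 13.1 to 32.7.

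At the tenascin C locus, Tnc went opposite ways with loading in the genotypes. In NT3 mice 1 to 4, Tnc had 19.39, 13.97, 23.69 and 18.23 CPM in loaded limbs, against 39.2, 36.14, 39.99 and 21.34 CPM in non-loaded limbs. In Ctrl mice 1 to 4 it had 22.66, 19.76, 34.01 and 47.44 CPM in loaded limbs, against 28.22, 11.68, 15.1 and 11.19 CPM in non-loaded limbs. Thus the loaded limb was lower than its partner in 4 of 4 NT3 mice and higher in 3 of 4 Ctrl mice, and the groups overlapped within each genotype and within each limb. The edgeR estimate of the loading change (log2, ± SE) was -0.85 ± 0.33 in NT3 and 0.91 ± 0.34 in Ctrl, a difference of -1.76 ± 0.48. That difference helped to choose the row and is given as a description.

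The row 8030451A03Rik ran the same way, with 964 to 2234 fragments per library. In NT3 mice 1 to 4 it had 1974, 1615, 1617 and 1352 CPM in loaded limbs, against 2433, 1774, 2045 and 1555 CPM in non-loaded limbs. In Ctrl mice 1 to 4 it had 2168, 1745, 2238 and 2112 CPM in loaded limbs, against 1943, 1307, 1735 and 1209 CPM in non-loaded limbs. The change was downward in 4 of 4 NT3 mice and upward in 4 of 4 Ctrl mice, yet the ranges of all 4 groups overlapped. The loading change was -0.24 ± 0.11 in NT3 and 0.44 ± 0.11 in Ctrl (log2 ± SE), and the difference of -0.68 ± 0.16 was the smallest in size among the 5 members that were lower in NT3. Tnc and 8030451A03Rik had a Pearson r of 0.78 across the 16 libraries, and of 0.66 after the group means were removed. Both values are descriptions, since the pair share libraries and may share fragments over the blocks printed above.

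**Figure D2:**
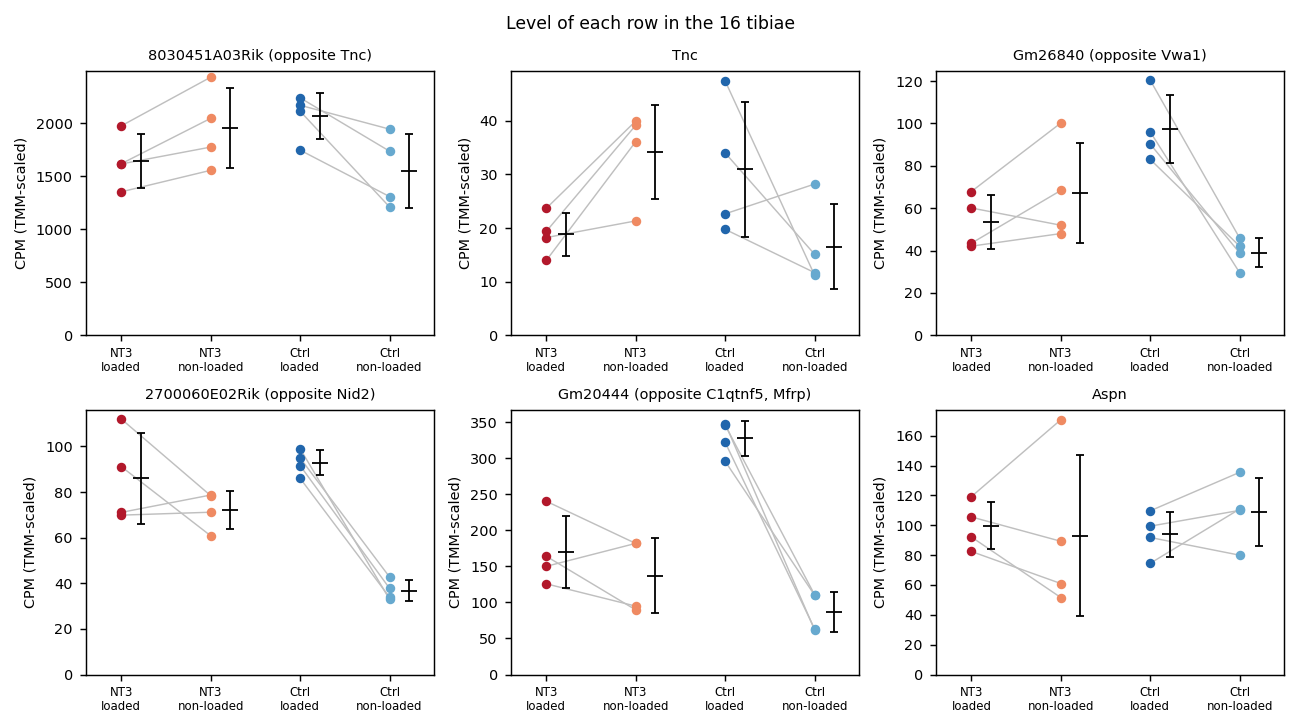
TMM-scaled CPM of the 6 rows in each tibia; grey lines join the limbs of 1 mouse, and black marks are the group mean ± SD (n = 4). Gm20444, 2700060E02Rik and Gm26840 were higher in every Ctrl loaded than in every Ctrl non-loaded limb. The Ctrl change is part of the contrast that chose the rows, and how many other rows separated so was not counted.

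At the locus of the pericellular protein gene Vwa1, Gm26840 was higher in the loaded limb of every Ctrl mouse. It had 67.87, 60.09, 43.44 and 42.06 CPM in the loaded limbs of NT3 mice 1 to 4, against 100.2, 51.95, 68.37 and 48.01 CPM in their non-loaded limbs. In Ctrl mice 1 to 4 it had 120.4, 83.01, 90.26 and 96.01 CPM in loaded limbs, against 45.86, 42.04, 38.83 and 29.51 CPM in non-loaded limbs. The limbs of Ctrl mice did not overlap, and neither did NT3 and Ctrl mice within either limb: NT3 was above Ctrl in non-loaded limbs and below it in loaded limbs. The loading change was -0.31 ± 0.21 in NT3 and 1.32 ± 0.21 in Ctrl, with the loaded limb higher in 1 of 4 NT3 mice and 4 of 4 Ctrl mice. The difference was -1.63 ± 0.30. How many rows of the whole table separate groups in such ways was not counted, so nothing is read from these separations, here or for the members below.

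At the nidogen-2 locus, the row 2700060E02Rik was lowest in Ctrl non-loaded limbs. It had 112, 69.87, 71.08 and 91.14 CPM in the loaded limbs of NT3 mice 1 to 4, against 78.4, 71.15, 78.69 and 60.81 CPM in their non-loaded limbs. In Ctrl mice 1 to 4 it had 98.98, 85.98, 91.57 and 94.88 CPM in loaded limbs, against 32.93, 33.87, 37.75 and 42.74 CPM in non-loaded limbs. Here the Ctrl non-loaded limbs stood apart from the other 12 libraries, all of which lay above them. The loading change was 0.24 ± 0.19 in NT3, where 2 of 4 mice were higher in the loaded limb, and 1.33 ± 0.20 in Ctrl, where 4 of 4 were. The difference was -1.09 ± 0.28. Fitted within limbs, NT3 minus Ctrl was 0.95 ± 0.22 in non-loaded and -0.10 ± 0.19 in loaded limbs.

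At the C1qtnf5 and Mfrp locus, Gm20444 had the largest Ctrl response of the 6 rows. It had 240.3, 125.8, 150.1 and 164 CPM in the loaded limbs of NT3 mice 1 to 4, against 181.8, 94.86, 181.9 and 89.62 CPM in their non-loaded limbs. In Ctrl mice 1 to 4 it had 345.8, 347.9, 295.6 and 321.9 CPM in loaded limbs, against 110.5, 61.9, 110 and 63.09 CPM in non-loaded limbs. The Ctrl loaded limbs were above every other library, and the NT3 loaded limbs were above every Ctrl non-loaded limb. The loading change was 0.34 ± 0.17 in NT3 (higher in 3 of 4 mice) and 1.95 ± 0.17 in Ctrl (higher in 4 of 4), that is 1.27-fold against 3.87-fold. The difference was -1.61 ± 0.24.

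The small leucine-rich proteoglycan gene Aspn was the only member whose difference was positive, at 0.41 ± 0.26. It had 105.6, 82.45, 92.15 and 119.2 CPM in the loaded limbs of NT3 mice 1 to 4, against 89.29, 60.98, 51.6 and 170.7 CPM in their non-loaded limbs. In Ctrl mice 1 to 4 it had 91.82, 109.7, 99.42 and 74.55 CPM in loaded limbs, against 79.97, 135.5, 110 and 110.9 CPM in non-loaded limbs. The groups overlapped throughout, 3 of 4 NT3 mice were higher in the loaded limb and 1 of 4 Ctrl mice was, and the non-loaded limb of NT3 mouse 4 held the highest value of all 16. The loading change was 0.20 ± 0.19 in NT3 and -0.21 ± 0.18 in Ctrl, each about as large as its standard error.

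**Figure D3:**
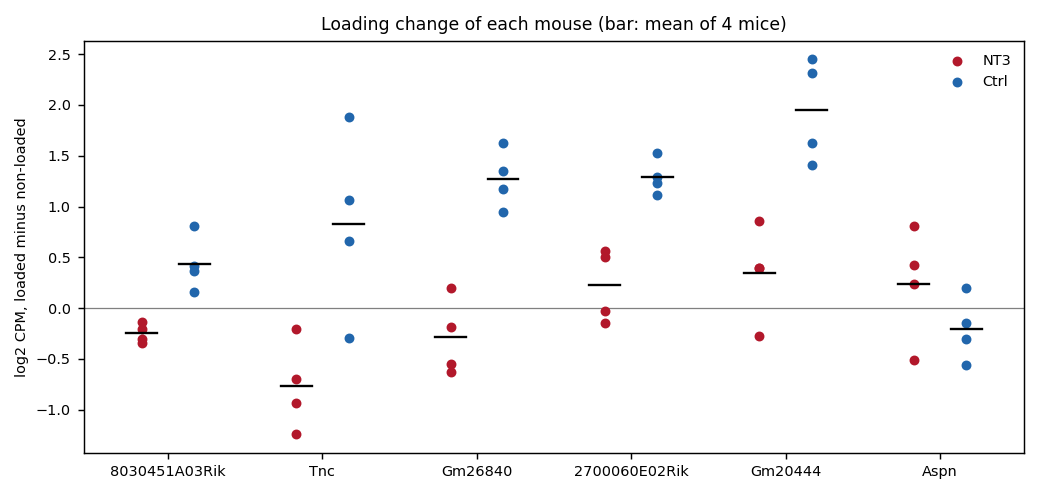
Log2 CPM of the loaded minus the non-loaded limb in each of 4 NT3 (red) and 4 Ctrl (blue) mice, for the 6 rows; bars are means. For 8030451A03Rik every NT3 mouse lies below 0 and every Ctrl mouse above it, and for Gm20444 the Ctrl mice lie between 1.41 and 2.45.

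Across all rows tested for the difference in loading response, 10 of 7192 were called at a Benjamini-Hochberg adjusted p under 0.05, which is 0.139%. Of the 6 members 2 were among them, Gm20444 and Gm26840; as this contrast chose the members, nothing is read from that count. With no block for mouse, edgeR called 0 rows of the table for this difference. The other 8 included Col1a2 (-1.13) and Ibsp (-1.10), both osteoblast genes, and 2810430I11Rik (-1.10), which lies opposite the fibrillar collagen gene Col5a1.

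The mean loading effect over both genotypes is a different contrast from the one that chose the rows, but it rests on the same 16 libraries. The Ctrl loading changes enter both contrasts, and the members were chosen with earlier results of these data known. The tests below are therefore not independent support. By edgeR's quasi-likelihood test with mouse as a block, 3 of 6 members rose with loading and 0 fell, against 3.24% of all 7192 rows that rose and 1.15% that fell. Gm20444 rose by 1.15 ± 0.12 (log2 ± SE, adjusted p = 3.22e-09), 2700060E02Rik by 0.79 ± 0.14 (adjusted p = 0.000127) and Gm26840 by 0.50 ± 0.15 (adjusted p = 0.0378). The loaded limb was the higher one in 7 of 8 mice for Gm20444, 6 for 2700060E02Rik and 5 for Gm26840. The median over the 6 members was 0.30, against -0.02 over all rows tested. The effects of 8030451A03Rik (0.10 ± 0.08, adjusted p = 0.622), Tnc (0.03 ± 0.24, adjusted p = 0.973) and Aspn (-0.01 ± 0.13, adjusted p = 0.987) did not pass, each being the mean of opposite changes in NT3 and Ctrl. The effect of Gm26840 was also such a mean, of -0.31 in NT3 and 1.32 in Ctrl. Its call is thus not a rise in both genotypes.

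In an exact two-sided sign-flip permutation over the 8 mice, which can reach p = 0.00781, the loading effect had p = 0.0156 for Gm20444, 0.0312 for 2700060E02Rik and 0.164 for Gm26840. The call of Gm26840 was also lost when any of 6 of the 8 mice was left out (adjusted p 0.0565 to 0.15, edgeR). Rows opposite marrow marker genes moved with loading: their sums were lower in the loaded limb of 7 (myeloid), 6 (B lymphoid) and 6 (erythroid) of 8 mice. Sums of marrow marker rows by name were lower in 4, 3 and 2 of 8 mice. The mean log2 CPM over both kinds of row was lower in the loaded limb of 7 of 8 mice. It was 6.25 to 6.53 in NT3 loaded, 6.35 to 6.64 in NT3 non-loaded, 5.96 to 6.06 in Ctrl loaded and 6.06 to 6.56 in Ctrl non-loaded limbs (16 of 39 listed rows were used, and 1 row opposite an erythroid marker was at 0 in every library). With that mean as a covariate, the loading effect of Gm20444 was 1.47 (adjusted p = 1.33e-05), that of 2700060E02Rik 0.68 (adjusted p = 0.292) and that of Gm26840 0.58 (adjusted p = 0.498). Muscle marker rows were lower in the loaded limb of 6 of 8 mice (4.81 to 6.57 in NT3 loaded, 5.91 to 7.74 in NT3 non-loaded, 5.20 to 7.43 in Ctrl loaded and 5.41 to 7.49 in Ctrl non-loaded limbs), and their part in these results beyond a covariate fit was not tested. In whole-bone RNA, fewer cells of a type and less RNA per cell cannot be told apart.

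For genotype, the limbs of each mouse were summed and 4 NT3 sums were compared with 4 Ctrl sums. This too is a different contrast from the one that chose the rows, on the same libraries. No member was called higher or lower by edgeR, against 1.14% of 8626 rows called higher in NT3 and 0.846% called lower; over all rows 996 had an unadjusted p under 0.05. The sums of Gm20444 averaged 151 ± 47.5 CPM in NT3 and 204 ± 18.8 CPM in Ctrl mice (SD, n = 4 each; log2 difference -0.43 ± 0.17 SE, adjusted p = 0.268). Without NT3 mouse 1, whose sum of 212 CPM was the highest among NT3 mice, the difference was -0.63 (adjusted p = 0.018). The sums of 2700060E02Rik averaged 78.1 ± 11.7 CPM in NT3 and 63.8 ± 2.78 CPM in Ctrl mice (log2 difference 0.29 ± 0.15, adjusted p = 0.468). Every NT3 sum of that row was above every Ctrl sum, and an exact permutation of 4 against 4 mice gave p = 0.0286, the smallest it can give. How many of the 8626 rows separate in this way was not counted. The gap lay in non-loaded limbs (0.95 ± 0.22, against -0.10 ± 0.19 in loaded limbs). The low Ctrl non-loaded values also entered the difference that chose the row, so nothing is read from the permutation p. The other 4 members differed by -0.16 to 0.20 with adjusted p of 0.846 or more.

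**Figure D4:**
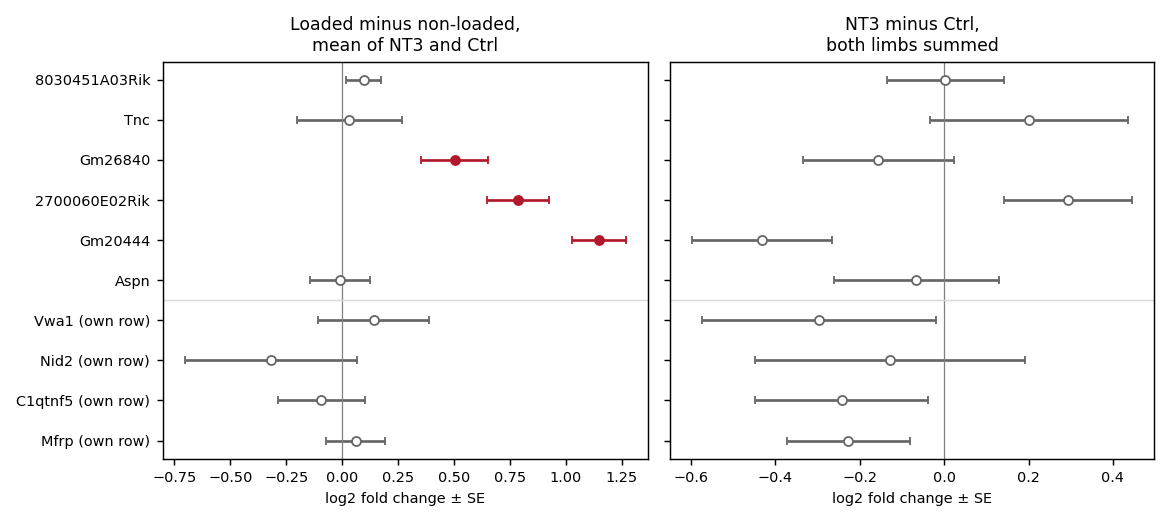
Log2 fold change ± SE of the mean loading effect (left) and of NT3 minus Ctrl with limbs summed (right) for the 6 members and, under the line, the rows of Vwa1, Nid2, C1qtnf5 and Mfrp; filled red points passed an adjusted p of 0.05. Gm20444, 2700060E02Rik and Gm26840 are the points that passed, all for loading.

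The matrix genes opposite were also counted under their own names, and those rows had no part in the choice. None of the 4 was called for loading, for genotype or for the difference in loading response. Vwa1 changed with loading by 0.14 (adjusted p = 0.869), Nid2 by -0.32 (0.778), C1qtnf5 by -0.09 (0.896) and Mfrp by 0.06 (0.901). Their differences in loading response were 0.37 for Vwa1, 0.38 for Nid2, 0.27 ± 0.39 for C1qtnf5 and 0.40 ± 0.26 for Mfrp (log2, ± SE where given). The adjusted p were 0.956, 0.978, 0.961 and 0.871 by edgeR, so no direction is read from their signs. Depth limits these rows: Nid2 had 1 to 22 fragments per library and Vwa1 6 to 29, and the standard error of the difference was 0.77 for Nid2 and 0.50 for Vwa1. C1qtnf5 averaged 29.9 ± 6.14 CPM in NT3 loaded, 28.9 ± 4.14 in NT3 non-loaded, 31.9 ± 8.26 in Ctrl loaded and 37.1 ± 6.72 in Ctrl non-loaded limbs. Per kb, Gm20444 exceeded C1qtnf5 in every group, at 233 ± 67.8 against 18.8 ± 3.87 CPM in NT3 loaded and 119 ± 37.9 against 23.4 ± 4.23 CPM in Ctrl non-loaded limbs.

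The rows most like each member were taken by Pearson r of log2 CPM over the 16 libraries, leaving out the members. They are descriptions, as all points share libraries, groups and depth. For 8030451A03Rik the closest was Ulk4 (0.90), which lies opposite the beta-catenin gene Ctnnb1; for Tnc, Pigp (0.80), opposite Ttc3; and for Gm26840, Gm26883 (0.88), opposite Tshz2. Gm20444 was closest to Prss23os (0.93), opposite the serine protease gene Prss23. Next came Gm11769 (0.90), opposite Slc38a10, and Gm26903 (0.90), opposite both Hmgcll1 and the bone morphogenetic protein gene Bmp5. Mtx1, opposite the thrombospondin gene Thbs3, was second for 2700060E02Rik (0.86), after Gm26936 (0.89) and before Fam83c (0.85), opposite Gm16098. Among the members, Gm26840 and Gm20444 had an r of 0.85 and Aspn had negative values with all 5 others, from -0.63 with Tnc to -0.23 with 2700060E02Rik.

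Aspn lies in a cluster with Ecm2, Omd and Ogn on chromosome 13, and its 2 closest rows in the whole table were the cluster members Ogn (r = 0.92), which encodes osteoglycin, and Omd (r = 0.87), which encodes osteomodulin. Ecm2 came 85th, with r = 0.68. Ogn averaged 152 ± 34.3 CPM in NT3 loaded and 146 ± 71.7 in NT3 non-loaded limbs, against 142 ± 39.6 in Ctrl loaded and 186 ± 41.7 in Ctrl non-loaded limbs. Omd averaged 61.8 ± 16.6 CPM in NT3 loaded and 61.2 ± 45.2 in NT3 non-loaded limbs, against 58.3 ± 10.5 in Ctrl loaded and 62 ± 15.3 in Ctrl non-loaded limbs. The non-loaded limb of NT3 mouse 4 was the highest library for each of the 4 rows, at 170.7 CPM for Aspn, 245.4 for Ogn, 127 for Omd and 168.6 for Ecm2. None of Ogn, Omd and Ecm2 was called for loading or genotype. Their differences in loading response were 0.52 ± 0.21, 0.23 ± 0.34 and 0.40 ± 0.26 (adjusted p = 0.645, 0.961 and 0.863 by edgeR). Aspn had the same sign. As Ogn and Omd were its closest rows over these same libraries, nothing is read from the shared sign.

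**Figure D5:**
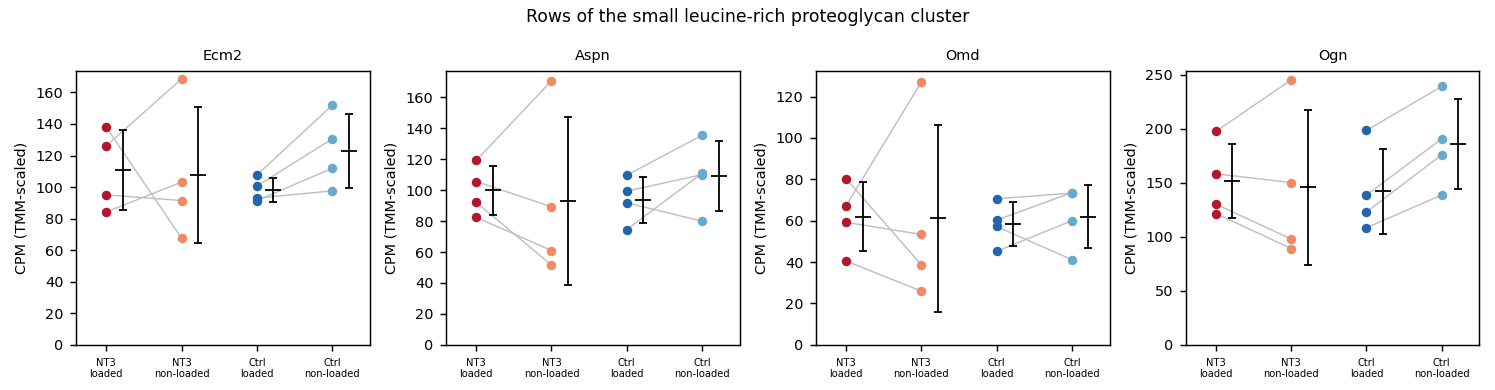
TMM-scaled CPM of Ecm2, Aspn, Omd and Ogn, in their order along the chromosome, in each tibia, with the limbs of a mouse joined and the group mean ± SD in black (n = 4). The highest point in each panel is the non-loaded limb of NT3 mouse 4.

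Rows of 6 lists of related matrix genes were counted by their own name and by the gene opposite; no test compared these counts. Over the whole table, with the members left out, 3.71% of 3882 rows opposite some gene rose with loading, and 2.6% of 3304 rows opposite none. Of rows opposite a basement membrane gene, 4 of 7 tested rose and 0 fell, or 2 of 5 without the members; besides the members Gm26840 and 2700060E02Rik these were Gm15419, opposite the type IV collagen gene Col4a2 (0.71 ± 0.13, adjusted p = 0.000228), and Gm42604, opposite Fras1, which encodes a basement membrane protein of skin (2.39 ± 0.46, adjusted p = 0.000402). Depth limits Gm42604, which had 0 to 26 fragments per library. Gm15419 averaged 97 ± 20.4 CPM in NT3 loaded and 82.7 ± 26.6 in NT3 non-loaded limbs, against 154 ± 19.6 in Ctrl loaded and 68.4 ± 10.8 in Ctrl non-loaded limbs. Of the basement membrane genes under their own row name, 0 of 12 tested rose or fell, with a median of 0.06; the smallest p was that of the type IV collagen gene Col4a6 (0.57 ± 0.31, adjusted p = 0.378). Left without the 2 members, the median of the rows opposite was 0.05.

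Of rows opposite a tenascin or matricellular gene, 2 of 7 rose and 0 fell, or 2 of 6 without the member. They were Apol7d, opposite the fibronectin gene Fn1 (0.63 ± 0.09, adjusted p = 1.13e-06), and Mtx1, opposite Thbs3 (0.47 ± 0.11, adjusted p = 0.00717). The Fn1 row itself changed by 0.81 ± 0.41 (adjusted p = 0.336). By row name 0 of 8 rose or fell with loading, whereas for genotype Spp1, which encodes osteopontin, was higher in NT3 (1.57 ± 0.29, adjusted p = 0.00182) and Ctgf, the matricellular growth factor gene now named Ccn2, was lower (-0.70 ± 0.19, adjusted p = 0.0494). Tnc was among neither. Depth was low for Spp1, with 2 to 23 fragments per library.

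Of the C1q/TNF list, 2 of 4 rows opposite rose, or 1 of 3 without the member: Gm20444 and Gm11747, opposite C1qtnf1 (0.46 ± 0.09, adjusted p = 0.000476), while 0 of 4 rose or fell by name. Of the pericellular proteoglycan and hyaluronan list, Gm26716, opposite the syndecan gene Sdc3, rose (0.27 ± 0.08, adjusted p = 0.0408; 1 of 4 opposite), as did Has1, a hyaluronan synthase gene (1.07 ± 0.23, adjusted p = 0.00157; 1 of 7 by name). Has1 averaged 32.6 ± 16.6 CPM in NT3 loaded and 16.9 ± 5.24 in NT3 non-loaded limbs, against 35.5 ± 7.82 in Ctrl loaded and 14.8 ± 2.29 in Ctrl non-loaded limbs. For genotype, Has2os, opposite the hyaluronan synthase gene Has2, was higher in NT3 (2.42 ± 0.39, adjusted p = 0.000299). It had 1 to 6 fragments in Ctrl libraries and 6 to 27 in NT3 libraries. No row of the small leucine-rich proteoglycans (7 by name and 2 opposite tested for loading) or of the tenascin and laminin receptors (4 by name and 4 opposite) was called for loading or genotype. With the members left out, no row of any of the 6 lists was called for the difference in loading response.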

How the data were processed

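Per the labels' protocols, total RNA from flushed tibial cortical bone (mean RNA integrity number 5.4) had its ribosomal RNA removed, was reverse transcribed from random primers and was read from 1 end (75 bases). The authors used mm10, STAR 2.4.2a, Subread, featureCounts 1.4.6 and DESeq2, per the submitters' processing notes. The values are the counts per gene name that the authors deposited, not normalized; the annotation release and strand setting are not given in the sources used here. The members and lists were chosen with earlier results of these data known.

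Rows were placed on GENCODE M21 (GRCm38): 45250 of 47517 matched by symbol and 620 by an older one. A row was called opposite a gene at 20 or more overlapping exon bases on the other strand, which held for 7909 rows. Counts were filtered (filterByExpr, minimum count 10), scaled by TMM and fitted by robust quasi-likelihood (edgeR 4.0.16, limma 3.58.1, R 4.3.3), with Benjamini-Hochberg values over all rows tested. Loading used 16 libraries with mouse as a replicate block, since the design text pairs the limbs; deviations of the limbs of a mouse from their group means correlated at 0.045 to 0.178, and another mouse gave a higher value than the partner for Ctrl mouse 4 (0.094 against 0.045). Genotype used the 8 limb sums. The members' differences in loading response were part of the fit over all rows and of its count of calls; as these chose the members, they and the changes within a genotype or limb are given as descriptions, without p. Log2 CPM for each mouse used a prior count of 2. Named rows were the members, the genes opposite, up to 4 called rows per list (2 of smallest p where none was called) and the 3 rows of highest r per member; the rows called for the difference were named after their values were seen. The fits were also run on simulated counts that had a common dispersion and no mouse effect, unlike these data. Nothing is read from that run for the rows here. DESeq2 1.42.0, other scalings and filters, covariates and leaving out each mouse were tried.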

Additional observations from a re-analysis of the deposited data

Results flagged for a closer look

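Among 72 groups of 4 values checked, Ctrl mouse 1 stood apart for C1qtnf5 in Ctrl loaded limbs, with 44.1 CPM against 28.8 CPM in the nearest of the other 3; chance sets apart about 1 group in 20. The loading change of 8030451A03Rik differed between genotypes by -0.68 on the log2 scale, with every NT3 mouse lower and every Ctrl mouse higher in the loaded limb; the difference chose the row and is given as a description, without p; the row was not among the 10 called for it.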

How the results depend on the processing

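The alternatives were DESeq2 in place of edgeR, DESeq2 size factors, no filter or a minimum count of 20, leaving out ribosomal RNA and the Gm10800 row, marrow or muscle marker rows as a covariate, no replicate block, animal number as a term, exact permutations, an overlap of 100 bases, and leaving out each mouse. Of the values compared, 342 kept their direction and side of the threshold or stayed within 1.5 times or 1 SD, 12 moved further, 13 lost and 2 gained a call, and 23 changed sign. All 23 were small effects that passed in neither setting. The exact permutations were judged by an unadjusted p under 0.05, and the fits by adjusted p. The gained call of 2700060E02Rik for genotype rests on such an unadjusted permutation p (0.0286). For loading, Tnc (0.03) was -0.076 with the marrow and -0.048 with the muscle covariate and -0.16 to 0.26 without a mouse; Aspn (-0.01) was 0.002 with DESeq2, 0.001 without ribosomal RNA and Gm10800 rows, 0.019 by permutation and -0.10 to 0.14 without a mouse. For genotype, 8030451A03Rik (0.003) was -0.050 with the marrow and -0.037 with the muscle covariate, -0.003 by permutation and -0.10 to 0.11 without a mouse; Aspn (-0.07) was 0.16 with the marrow covariate and -0.32 to 0.07 without a mouse; Gm26840 (-0.16) was 0.04 with the animal number term. Rows called for loading numbered 316, and 197 with DESeq2, 54 with the marrow covariate, 205 with no replicate block and 222 to 334 without a mouse; members called were 3, and 1 with the marrow covariate and 2 to 3 without a mouse. Rows called for the difference in loading response numbered 10, and 17 with no filter, 5 with the muscle covariate, 0 with no replicate block and 7 to 14 without a mouse. Rows called for genotype numbered 171, and 27 with the marrow covariate, 86 with the animal number term and 88 to 209 without a mouse (91 without Ctrl mouse 2, 88 without NT3 mouse 3); members called were 0, and 0 to 1 without a mouse. The cause of these changes was not tested.

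For single rows, Gm26840 lost its loading call with no filter (0.48, adjusted p = 0.137), DESeq2 (0.50, adjusted p = 0.142), the muscle covariate (0.47, adjusted p = 0.0892) and no replicate block (0.50, adjusted p = 0.103), while its estimate stayed near 0.50. Gm20444 kept its loading call in every alternative fit, at 1.06 to 1.25 without a mouse, and 2700060E02Rik in all but the marrow covariate. By exact permutation their p were 0.0156 and 0.0312, which are not adjusted. The depth of 10 to 42 fragments per library limits Tnc: its difference was -2.22 without Ctrl mouse 1 and -1.36 without Ctrl mouse 4.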
